A study of Mus musculus with 16 samples.

Results

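Gene expression after thymic epithelial deletion of Rbfox1 was analysed in mature medullary thymic epithelial cells (mTEC) with 4 of the 16 RNA-seq libraries of the series, the mature libraries of the Rbfox1 line. They came from 2 Rbfox1 tKO mice (libraries tKO 2 and tKO 3) and 2 control mice (control 2 and control 3), 1 female and 1 male in each group, the females carrying number 2. All 4 mice had 2 floxed alleles of Rbfox1, written Rbfox1 lox/lox. The tKO mice were Foxn1 wildtype/cre, and per the study Cre recombinase was under the control of the Foxn1 locus, which is active in thymic epithelium. The controls were Foxn1 wildtype/wildtype and so had no Cre. Presence of Cre and loss of Rbfox1 therefore cannot be told apart in this comparison. The labels give the strain as C57BL/6 and the age as 4 to 6 weeks, and the study's methods describe a mixed 129S2/Sv and C57BL/6J background. About 10000 cells were sorted per library as CD45- EpCAM+ Ly51- UEA+ cells with high MHC class II. The other 12 libraries were immature mTEC of the same 4 mice, and mature and immature mTEC of an Rbfox2 line built with the same Cre, which is used here only to show where the effects differ.

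RBFOX1 belongs to a family of RNA-binding proteins that bind UGCAUG elements in introns near alternative exons and favour or repress the use of the exon depending on the side on which they bind. Its best known roles are in neurons and in striated muscle. Mature mTEC present self-antigens to developing T cells, and for this they transcribe a large share of the genes that are otherwise restricted to single tissues, many of them under the control of the transcriptional regulator AIRE. Loss of a splicing factor can alter how exons are joined without altering the amount of a transcript. The values here are amounts per gene, since reads were counted over whole genes, and exon use was not measured.

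The 4 libraries had similar depth, with total counts from 4050339 to 4636367. The cells carried the markers of their label. Aire had 1261 and 1592 CPM in the controls and 1612 and 1475 CPM in the tKO libraries, where CPM is the count scaled to library size with edgeR's TMM factors, and Epcam, the sorting marker, had 2452 to 2811 counts. Xist was counted in the libraries numbered 2 and the Y-linked genes Ddx3y, Eif2s3y, Kdm5d and Uty in those numbered 3, as the labelled sexes require. Marker genes of other cells were counted too, and whether this RNA came from such cells or from the mTEC was not tested. The summed level of 14 thymocyte genes was 192 to 194 CPM in the controls and 192 to 202 CPM in the tKO libraries, that of 5 B cell genes 68.6 to 70.7 and 61.2 to 64.3 CPM, that of 10 dendritic cell and macrophage genes 323 to 364 and 339 to 344 CPM, that of 8 fibroblast genes 479 to 548 and 420.1 to 591 CPM, that of 7 endothelial genes 64.0 to 75.7 and 67.4 to 91.6 CPM, and that of 6 red cell genes 39.0 to 56.4 and 49.8 to 53.9 CPM. The B cell sums were lower in both tKO libraries, and the other sums overlapped. Of the 14 thymocyte genes 12 had enough counts to be tested, while the recombinase subunit gene Rag2 had 0 to 2 counts.

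Rbfox1 (ENSMUSG00000008658, chromosome 16 of GRCm38, 5885355 to 7411526), the targeted gene, was at 53.6 and 49.3 CPM in the controls and at 34.7 and 30.5 CPM in the tKO libraries. Both tKO libraries lay below both controls. The level was 63.4% of the control level, or -0.66 on the log2 scale with a standard error of 0.135, which did not pass the test over all genes (adjusted p = 0.242, edgeR quasi-likelihood test with Benjamini-Hochberg adjustment). The count includes exons outside the deleted part, and the sources used here do not name the deleted exons, so the amount of remaining intact mRNA is not known. The adjusted p moved with the settings, from 0.0288 without a filter on low counts to 1 in DESeq2. In immature mTEC of the same mice Rbfox1 was at 161.8 and 158.2 CPM in the controls and 149.1 and 152.0 CPM in the tKO libraries. That is -0.09 on the log2 scale with a standard error of 0.111. The difference between the mature and the immature response was -0.57 (standard error 0.166). It did not pass edgeR's test of the difference (adjusted p = 0.9999). In mature mTEC of the Rbfox2 line the same transcript was at 47.3 and 50.9 CPM in the controls and 54.3 and 46.7 CPM in the tKO libraries, which overlapped. Its paralog Rbfox2 was at 67.9 and 69.1 CPM in the controls and 65.9 and 60.4 CPM in the Rbfox1 tKO libraries, or -0.12 on the log2 scale, and the neuronal paralog Rbfox3 was at 17.6 and 20.8 against 17.4 and 22.5 CPM, which overlapped. Neither Rbfox2 nor Rbfox3 passed the test.

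**Figure D1:**
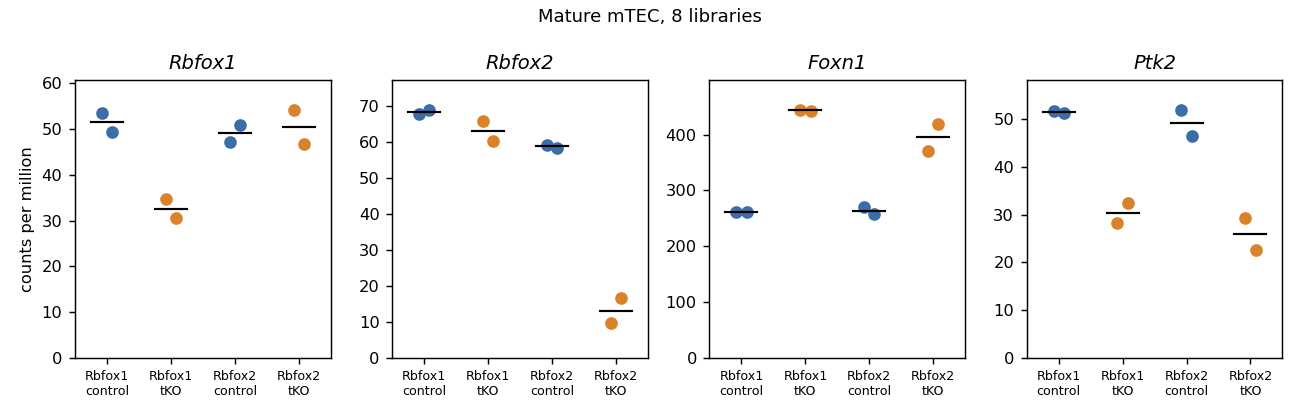
Level of Rbfox1, Rbfox2, Foxn1 and Ptk2 in the 8 mature mTEC libraries, in CPM on a linear axis from 0 (points, 1 library each, black lines, mean of 2 mice). Rbfox1 is lower in the Rbfox1 tKO libraries (34.7 and 30.5 CPM) than in their controls (53.6 and 49.3 CPM), whereas Foxn1 is higher and Ptk2 lower in the tKO libraries of both lines.

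The test was run on 18021 features with enough counts, of which 17090 were Ensembl genes. At an adjusted p under 0.05 and a fold change over 2, 3 features were called, all higher in the tKO libraries, which is 0.0166% of those tested. Without the fold threshold 4 were higher, or 0.0222%, and 0 were lower. All 4 lie within 500 kb of Foxn1, the locus that controls Cre per the study. Where in the genome the Cre sequence lies was not examined. Beyond that distance 0 of 17056 Ensembl genes passed edgeR's quasi-likelihood test, with a lowest adjusted p of 0.155, and DESeq2 likewise called 3 features in all, and 4 without the fold threshold. The controls were sex-matched littermates per the study's methods, and with 1 female and 1 male in each group the sex puts mice of the same number together. With these pairs as a block 11 features had an adjusted p under 0.05, 10 higher and 1 lower. Beside the 4 near Foxn1 they were Fos, Jun, Hspa1a, Hspa1b, Xlr3b and an assembled locus, all higher, and Ptk2, which was lower, and the adjusted p of each of these 6 genes was 0.0136 (edgeR). With sex as a covariate in place of the pairs, only the 4 near Foxn1 had an adjusted p under 0.05. The block also leaves fewer residual degrees of freedom than the 4 of the fit without it. These calls therefore depend on whether and how the pairs are modelled. Over all features 604, or 3.35%, had an unadjusted p under 0.05. Setting the Foxn1 region aside, the median log2 fold change was 0.0015, and among 11528 genes at 10 CPM or more the middle 90% lay between -0.25 and 0.27. In this group 3 genes had a log2 fold change over 1 in size. They were Gm438 at 1.04, Cebpb at 1.003 and Tmem181b-ps at -1.02, none of which passed the test. For Cebpb, a transcription factor of inflammation and fat cell differentiation, library tKO 3 with 144 counts stood above the other 3 with 42 to 64, and for the pseudogene Tmem181b-ps the same library with 6 counts stood below the others with 51 to 90.

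**Figure D2:**
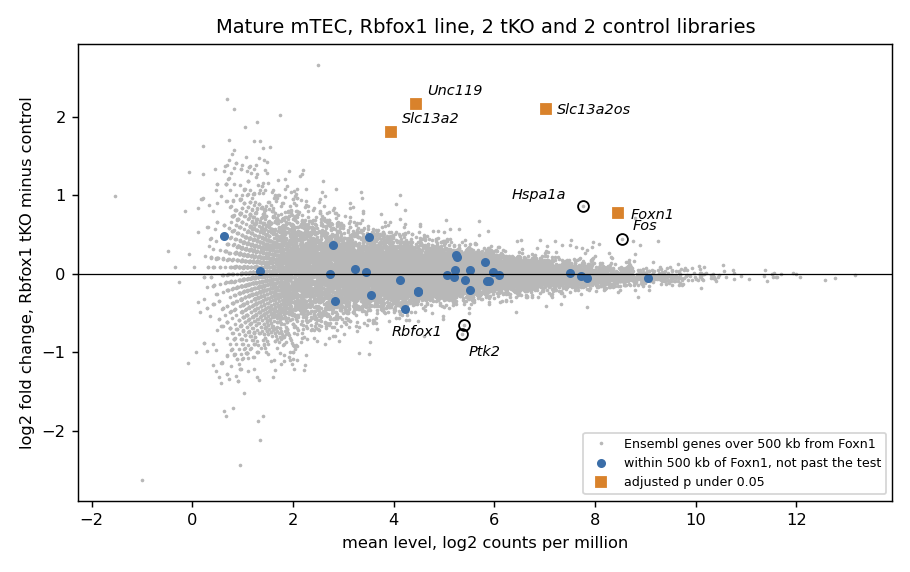
Log2 fold change of Rbfox1 tKO against control in mature mTEC for 17090 Ensembl genes (y) against their mean level in log2 CPM (x). Orange squares are the 4 genes at an adjusted p under 0.05, blue points the other tested genes within 500 kb of Foxn1, and black circles Rbfox1, Ptk2, Fos and Hspa1a, none of which passed in the fit without pairs.

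The genes that changed flank Foxn1 on chromosome 11. Unc119, which encodes a carrier of lipid-modified proteins, had 33 and 40 counts in the controls and 165 and 143 in the tKO libraries and rose 4.47-fold. Slc13a2os, a non-coding gene antisense to Slc13a2, had 205 and 249 counts against 945 and 891 and rose 4.29-fold. Slc13a2, a dicarboxylate transporter gene, had 42 and 21 counts against 110 and 98 and rose 3.5-fold. For each of them both tKO libraries stood far above both controls. Slc13a2 and Slc13a2os overlap, and whether counting used strand is not stated in what was read, so their reads cannot be told apart. Without tKO 2 the adjusted p of Slc13a2 was 0.0693 (edgeR). Foxn1, the transcription factor that specifies thymic epithelium, had 260.3 and 260.7 CPM in the controls and 444.8 and 443.0 CPM in the tKO libraries and rose 1.7-fold (adjusted p = 0.000128, edgeR). Reads from Foxn1 sequence that accompanies Cre would count here too, and the origin of the reads was not tested. The amount of intact Foxn1 mRNA is therefore not known. The same 4 genes are given for the Rbfox2 line with log2 fold changes of 2.04 for Unc119, 2.45 for Slc13a2os, 1.55 for Slc13a2 and 0.58 for Foxn1. None of them passed edgeR's test of the difference between the lines (adjusted p = 0.994 for each). The other 30 tested genes within 500 kb of Foxn1 did not pass, and their log2 fold changes lay between -0.45 for Eral1 and 0.48 for Sebox.

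**Figure D3:**
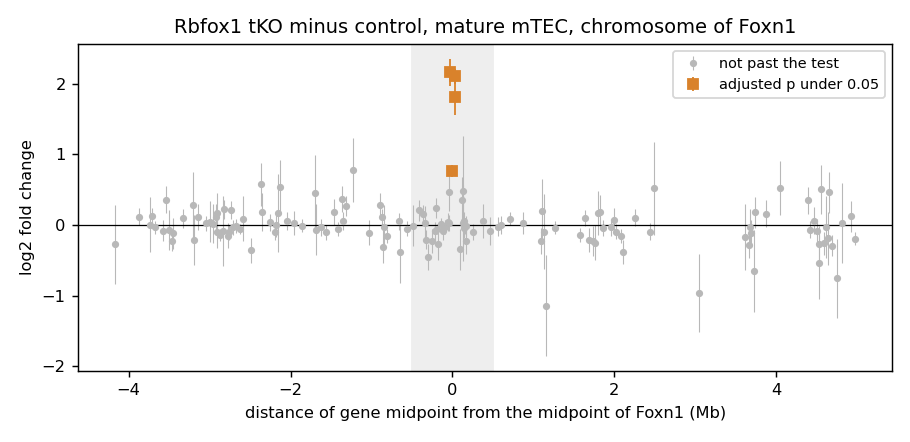
Log2 fold change (y, with its standard error) of genes on the chromosome of Foxn1 against the distance of the gene's midpoint from that of Foxn1 in Mb (x). The 4 orange squares, all inside the shaded 500 kb on either side, are the genes at an adjusted p under 0.05, and genes farther out scatter around 0.

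Outside the Foxn1 region the smallest p belonged to Ptk2 (ENSMUSG00000022607), which encodes focal adhesion kinase, the kinase that relays integrin contacts. It had 51.8 and 51.3 CPM in the controls and 28.3 and 32.4 CPM in the tKO libraries. The groups were well apart, at -0.77 on the log2 scale with a standard error of 0.146 (adjusted p = 0.155, edgeR). The adjusted p was 0.0136 with the pairs as a block, 0.0258 with all 16 libraries in 1 fit and 0.00293 without a filter, and it reached 0.999 without tKO 2, over log2 fold changes from -0.87 to -0.67. In the Rbfox2 line, with its own controls, Ptk2 had 52.1 and 46.6 CPM in the controls and 29.2 and 22.6 CPM in the tKO libraries and fell by 0.94 on the log2 scale (adjusted p = 0.0187, edgeR). In immature mTEC of the Rbfox1 line it had 70.1 and 70.8 CPM against 46.9 and 46.8 CPM, a log2 fold change of -0.59 (adjusted p = 0.305, edgeR). The 4 Rbfox2-line immature libraries had 78.5 and 75.1 CPM in the controls and 36.2 and 41.1 CPM in the tKO mice. Every one of the 8 libraries with Cre was thus below every library without it in the same population. Ptk2 lies on chromosome 15, away from Foxn1, and its 8 tested neighbours within 500 kb had log2 fold changes from -0.54 for Gpr20 to 0.39 for Dennd3, none of which passed the test. Which transcripts of Ptk2 the reads came from was not analysed here.

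The remaining genes with the smallest p among those lower in both tKO libraries did not pass the test, and their values follow by role. Cyp51, a lanosterol demethylase of cholesterol synthesis, had 147.7 and 151.1 CPM in the controls and 123.9 and 99.8 CPM in the tKO libraries. Tfrc, the transferrin receptor of iron uptake, had 162.1 and 199.8 against 144.9 and 132.2 CPM. For both, library tKO 3 was the lowest. C1qtnf6, a secreted C1q family protein, had 265.7 and 261.4 against 214.7 and 176.0 CPM (log2 fold change -0.43). The fibrinogen beta chain gene Fgb, a liver antigen, had 41.7 and 34.4 against 28.3 and 22.5 CPM, and the kallikrein gene Klk1b16 had 40.4 and 21.5 against 19.4 and 16.2 CPM. Without control 3 Klk1b16 passed (adjusted p = 0.00694, edgeR), as control 2 alone was high. The imprinted zinc finger gene Peg3 had 33.4 and 41.9 against 25.6 and 26.1 CPM. The others were Elmod2 at a log2 fold change of -0.43, Shisa3 at -0.87 and the potassium-dependent exchanger gene Slc24a2 at -1.81, which had 18 and 20 counts in the controls and 4 and 6 in the tKO libraries. Of the 17056 Ensembl genes over 500 kb from Foxn1, 2586 had both tKO libraries below both controls, or 15.2%, and 2683 had them above, or 15.7%.

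Most of the 12 genes with the smallest p among those higher in both tKO libraries were immediate early or heat shock genes, which cells switch on within minutes of stimulation or stress and which tissue dissociation is known to induce. Fos, a subunit of the AP-1 transcription factor, had 312 and 318 CPM in the controls and 438 and 417 CPM in the tKO libraries. Jun, its partner, had 483 and 561 against 705 and 689 CPM. On the log2 scale Fos was at 0.44 and Jun at 0.42, with adjusted p of 0.207 and 0.223 (edgeR), and 0.0136 for both with the pairs as a block. Further members were Dusp1, a phosphatase that switches off MAP kinases, with 104.1 and 101.5 against 149 and 127 CPM, Egr1 with 400.5 and 427 against 573 and 491 CPM, Fosb with 135 and 148 against 188 and 176 CPM, and Btg2 with 340 and 342 against 447 and 412 counts. The control and tKO libraries did not overlap for any of these, which the rule that picked them required. Ccn1, a matricellular protein gene of the same kind of response that is on no list, had 23.6 and 26.8 against 40.7 and 40.6 CPM. The remaining genes of the 12 were Gm438 and the X-linked gene Xlr3b, the latter on 13 and 1 counts in the controls and 72 and 14 in the tKO libraries, with the library numbered 2 the higher within each group.

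The chaperone genes Hspa1a and Hspa1b encode the inducible HSP70 proteins. Hspa1a had 99.6 and 210.7 CPM in the controls and 284.8 and 278.4 CPM in the tKO libraries, and Hspa1b had 243 and 432 against 574 and 531 CPM. Control 2 was well below control 3 for both, so the spread within the controls was wide. On the log2 scale Hspa1a was 0.86 higher (standard error 0.214), and this was 1.496 without control 3 and 0.42 without control 2. The adjusted p was 0.818 with all 4 libraries, 0.0136 with the pairs as a block, 3.45e-16 without a filter on low counts and 6.94e-06 without control 3 (edgeR). The 2 genes are near-identical copies, and 58.8% of the 50-base words of the Hspa1a transcripts also occur in those of Hspa1b, so reads could be split between them in ways the counts do not show. Hspb1, a small heat shock protein gene, had 136 and 116 against 173 and 165 CPM. Of 18 chaperone genes, a list chosen after the values were seen, 13 had a fold change above 0 and 6 had both tKO libraries above the controls, against 15.7% of all genes, with a median of 0.05 that was -0.0115 without tKO 2, and the abundant constitutive chaperone genes Hspa8 and Hsp90ab1 lay at 0.04 and -0.00. Hspa1a, Hspa1b and Hspb1, which the rule had picked for not overlapping, were among the 6, so the share of 15.7% is not a fair measure for this count. Dnaja1 at 0.57 and Dnajb1 at 0.43, HSP70 co-chaperones, were also among the 6.

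The list of 22 immediate early and dissociation response genes was chosen with earlier results of these data known. Of these, 21 were tested and 0 passed in edgeR at an adjusted p under 0.05. All 21 had a fold change above 0, from 0.08 for Nr4a1 to 0.86 for Hspa1a, and the median was 0.36, against 0.0015 over all Ensembl genes outside the Foxn1 region. In 18 both tKO libraries lay above both controls, against 15.7% of all these genes, and 17 had an unadjusted p under 0.05, against 3.35% of all features. All members were measured in the same 2 mice a group and can vary together. Counts of members, here and for the other lists, therefore do not stand for replicates. Over 15 other settings 19 to 21 were above 0 and the median stayed between 0.30 and 0.41, and up to 6 members passed, the most without a filter on low counts, with 4 passing when the pairs were a block. Their summed level was 3703 and 4181 CPM in the controls and 5311 and 4982 CPM in the tKO libraries. The part of cell handling in these values was not tested.

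The promoters of 3 such genes are shown because they carry a stress or cAMP element near the start site, from 250 bases before the RefSeq start site to 50 after it (GRCm38.p6), with the element in capitals. Hspa1a (chr17:34972107-34972406) and Hspa1b (chr17:34959189-34959488) are on the minus strand, and their windows are identical at 296 of 300 bases. They hold the heat shock element GAANNTTC from 104 bases before the start. Dusp1 (chr17:26508423-26508722, minus strand) holds the cAMP response element TGACGTCA from 143 bases before it.
Hspa1a: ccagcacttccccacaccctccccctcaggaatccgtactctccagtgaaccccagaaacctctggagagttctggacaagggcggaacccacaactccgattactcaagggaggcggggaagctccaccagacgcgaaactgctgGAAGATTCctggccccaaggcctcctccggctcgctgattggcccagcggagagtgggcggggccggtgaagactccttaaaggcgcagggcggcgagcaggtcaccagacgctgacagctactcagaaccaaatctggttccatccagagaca
Hspa1b: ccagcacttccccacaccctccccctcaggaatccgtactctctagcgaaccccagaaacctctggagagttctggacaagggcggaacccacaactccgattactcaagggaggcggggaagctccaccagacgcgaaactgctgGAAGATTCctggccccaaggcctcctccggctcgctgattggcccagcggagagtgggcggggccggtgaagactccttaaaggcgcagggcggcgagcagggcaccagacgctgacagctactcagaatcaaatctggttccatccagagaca
Dusp1: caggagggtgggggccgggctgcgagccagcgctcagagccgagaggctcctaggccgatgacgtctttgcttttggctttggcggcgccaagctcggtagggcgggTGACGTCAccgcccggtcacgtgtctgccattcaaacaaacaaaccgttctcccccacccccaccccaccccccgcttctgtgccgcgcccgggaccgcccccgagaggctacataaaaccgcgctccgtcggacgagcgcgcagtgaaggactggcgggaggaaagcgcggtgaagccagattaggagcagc
Both strands were searched, and both elements are palindromes. GAANNTTC occurred in 3 of the 17 immediate early genes with a RefSeq window, or 17.6% (Jun, Hspa1a and Hspa1b), in 9 of 14 chaperone genes, or 64.3%, and in 7.95% of 27025 promoters. TGACGTCA occurred in 2 of the 17 (Dusp1 and Btg2), or 11.8%, and in 1.88% of all, and the CArG box bound by serum response factor in 1 (Zfp36), or 5.88%, against 1.57%. These are matches of letters and not measured binding sites.

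Genes of thymic tuft cells, a chemosensory mTEC-derived cell type that uses the signalling parts of taste cells, were also mostly higher. The gustducin subunit gene Gnat3 had 13.2 and 9.87 CPM in the controls and 22.7 and 20.1 CPM in the tKO libraries. Its partner subunit gene Gnb3 had 13.2 and 14.0 against 25.4 and 22.5 CPM, and Plcb2, the phospholipase of the same cascade, 18.7 and 17.8 against 26.7 and 29.0 CPM. The cation channel gene Trpm5 had 22.8 and 30.3 against 34.7 and 35.3 CPM, and Avil, an actin-binding protein gene of tuft cell microvilli, 40.6 and 45.8 against 58.3 and 54.4 CPM. For each of these 5 the tKO libraries were above the controls, and none passed the test. Of 13 tuft cell genes tested 11 had a fold change above 0 and 9 had both tKO libraries above the controls, against 15.7% of all genes, with a median of 0.40. The groups overlapped for Pou2f3, the factor that specifies tuft cells, with 199 and 137 counts against 179 and 160, and the members below 0 were Gfi1b at -0.49 and Dclk1 at -0.02. The summed level of the list was 249 and 236 CPM in the controls and 311 and 306 CPM in the tKO libraries. In a bulk sample more tuft cells and more RNA per tuft cell cannot be told apart. The median was 0.54 in immature mTEC of the same mice and -0.10 in mature mTEC of the Rbfox2 line, and the largest difference between the lines in the list, that of Gnat3 at 1.47 (standard error 0.350), had an adjusted p of 0.666 in edgeR's test of the difference.

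Cell cycle genes mostly had small fold changes below 0, none of which passed the test. Top2a, the topoisomerase that untangles replicated chromosomes, had 223 and 237 CPM in the controls and 171 and 215 CPM in the tKO libraries. Ccna2, which encodes cyclin A2, had 106.7 and 113.8 against 85.2 and 94.7 CPM, and the proliferation marker Mki67 had 239 and 279 against 206 and 262 CPM. The tKO libraries were below both controls for Top2a and Ccna2, while Mki67 overlapped. Of 24 genes tested 23 had a fold change below 0 and 8 had both tKO libraries below the controls, against 15.2% of all genes, and the median was -0.17. None passed, and the lowest and highest were Ccne1 at -0.34 and E2f1 at 0.03. Without control 3 the median was -0.0416 and 16 were below 0, and without tKO 2 these were -0.104 and 17. The median was -0.40 in immature mTEC of the same mice and 0.09 in mature mTEC of the Rbfox2 line.

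Genes of cholesterol synthesis and uptake, listed after Cyp51 had been seen among the lower genes, gave a similar picture. Hmgcs1, the synthase before the rate-limiting step, had 174 and 179 CPM in the controls and 161 and 135 CPM in the tKO libraries, and Stard4, a sterol carrier gene, had 76.4 and 82.4 against 67.6 and 56.6 CPM. Of 23 tested, 22 had a fold change below 0, 12 had both tKO libraries below the controls, against 15.2% of all genes, and 9 had an unadjusted p under 0.05, against 3.35% of all features, with a median of -0.26, and Pmvk, at 0.05, was the member above 0. None passed, and the median was -0.131 without tKO 3, -0.17 without control 3 and -0.389 without tKO 2. The median was -0.32 in immature mTEC and -0.15 in the Rbfox2 line. The sterol regulatory element TCACCCCAC, searched on both strands, was in 1 of 16 members with a RefSeq window, or 6.25%, against 0.522% of all promoters. That member was Hmgcs1 (chr13:119690101-119690400, plus strand), whose window is printed with the element in capitals, from 137 bases before the start site.
Hmgcs1: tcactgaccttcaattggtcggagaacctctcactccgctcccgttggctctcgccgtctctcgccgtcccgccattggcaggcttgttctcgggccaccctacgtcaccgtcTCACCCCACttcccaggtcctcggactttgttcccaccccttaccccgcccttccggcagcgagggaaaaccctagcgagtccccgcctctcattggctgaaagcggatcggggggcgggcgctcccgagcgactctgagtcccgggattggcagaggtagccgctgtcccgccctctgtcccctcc

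**Figure D4:**
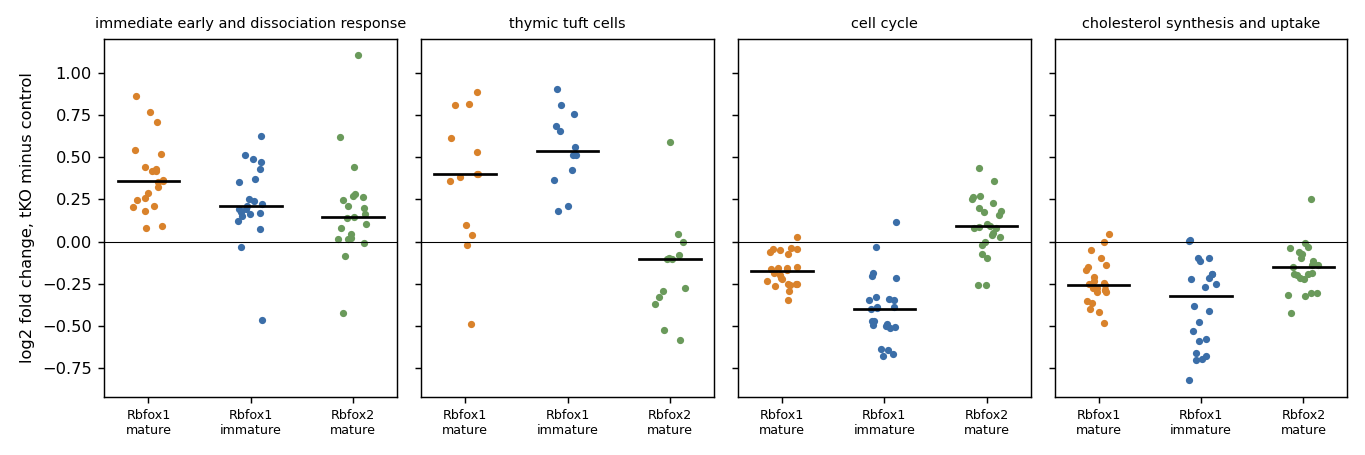
Log2 fold change of tKO against control (y) for the members of 4 gene lists (points, black line at the median) in mature and immature mTEC of the Rbfox1 line and mature mTEC of the Rbfox2 line. Immediate early medians are above 0 in all 3 comparisons (0.36, 0.21 and 0.15), whereas tuft cell and cell cycle medians of the Rbfox2 line lie on the other side of 0.

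Genes that define mature mTEC were near their control level. Aire lay 0.11 above the controls on the log2 scale (standard error 0.112), with control 2 the lowest of the 4 libraries and the groups overlapping, and the sign changed without that library. Fezf2, a zinc finger factor that drives other tissue-restricted antigens, had 602 and 651 CPM in the controls and 661 and 639 CPM in the tKO libraries. Of 11 mature mTEC genes 6 were above 0 and 5 below, with a median of 0.01, from Ccl17 at -0.18 to the costimulatory ligand gene Cd86 at 0.36, and 0 passed in edgeR. The 11 genes of MHC class II presentation had a median of -0.00 and summed levels of 23081 and 23138 CPM in the controls against 23808 and 21848 CPM. Their extremes were H2-DMa at -0.06 and H2-DMb1 at 0.67, the latter on 13 to 27 counts. The 19 genes of RANK, CD40 and lymphotoxin beta receptor signalling, which drives mTEC maturation, lay between -0.09 for Birc2 and 0.18 for Traf5, with a median of 0.02. The 15 tested cofactors of promiscuous expression, such as topoisomerases and chromatin readers, lay between -0.27 for Hipk2 and 0.07 for Top1.

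Targets of FOXN1 and cortical genes, set beside the higher Foxn1 count, gave small values of both signs. The thymoproteasome gene Psmb11 had 10.4 and 8.99 CPM in the controls and 13.4 and 14.7 CPM in the tKO libraries, a log2 fold change of 0.53 with no overlap. The Notch ligand gene Dll4 had 57.1 and 48.7 against 50.7 and 58.0 CPM and the chemokine gene Ccl25 409 and 419 against 531 and 393 CPM, which overlapped. The median over 12 genes was 0.07, the lowest being Enpep at -0.27. Genes of immature mTEC had a median of -0.03, from Itgb4 at -0.20 to Ccl21a at 0.54 on 14 to 27 counts. Genes of cornified post-Aire cells had a median of 0.13, from Dsg1a at -0.12 to Krt80 at 0.44, and their summed level was 1583 and 1190 CPM in the controls and 1483 and 1556 CPM in the tKO libraries, so that control 3 was the lowest. The median was 0.48 without control 2 and -0.092 without control 3. When control 2 was left out, the cornified layer genes Krt10, Calml3, Rptn and Dmkn passed at an adjusted p of 4.81e-05, 0.0083, 0.0251 and 0.0111 (edgeR), since control 3 was then the 1 control left. Krt10 had 295 and 138 CPM in the controls and 259 and 290 CPM in the tKO libraries. With all 4 libraries none of these passed.

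**Figure D5:**
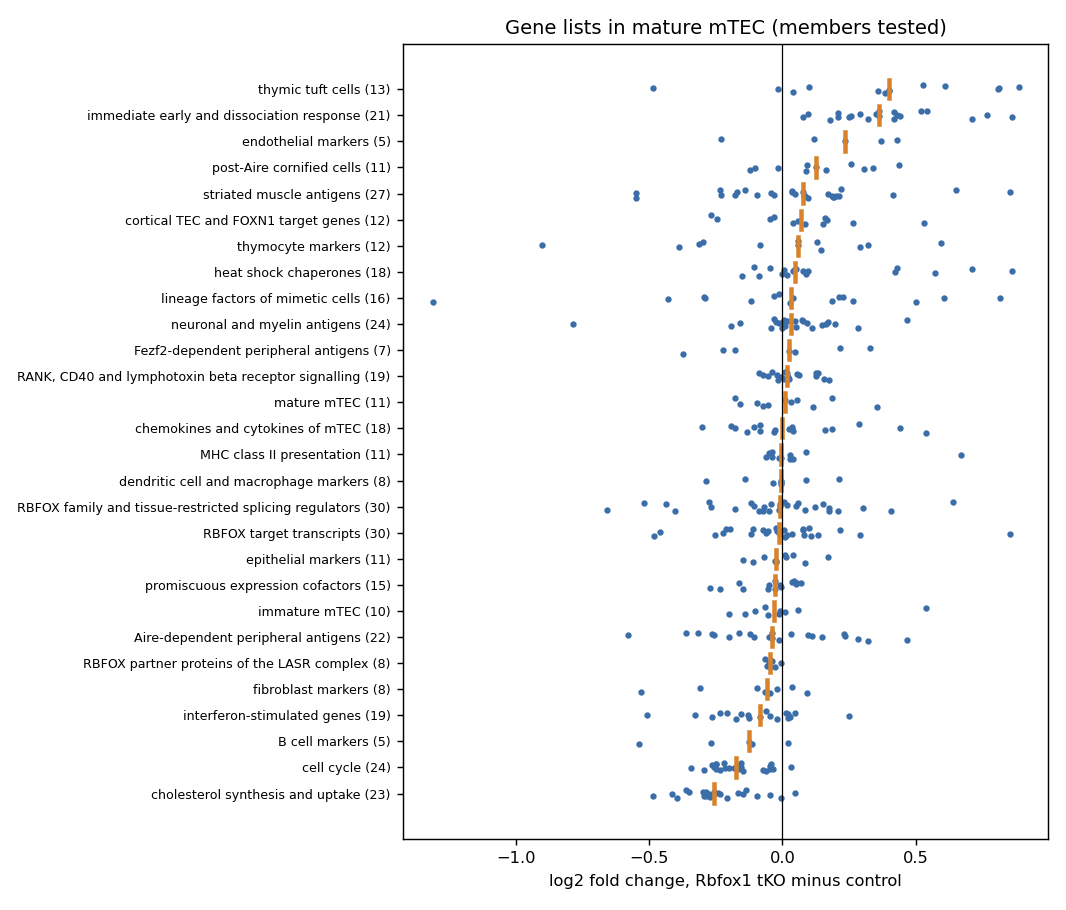
Log2 fold change of Rbfox1 tKO against control in mature mTEC (x) for the members of gene lists with at least 5 tested (blue points, number tested in brackets, orange bar at the median), ordered by median. Tuft cell and immediate early genes are at the top (0.40 and 0.36) and cell cycle and cholesterol genes at the bottom (-0.17 and -0.26).

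Transcripts whose exons RBFOX proteins are known to control were near 0 as a group. Of 30 tested, 13 were above and 17 below 0, with a median of -0.01, and 0 passed in edgeR, where 4 had an unadjusted p under 0.05, against 3.35% of all features. Mef2c, a muscle and neuronal transcription factor gene, had 31 and 24 counts in the controls and 20 and 17 in the tKO libraries, at the low end with -0.48. Myom2, which encodes a protein of the sarcomere M band, had 40 and 20 counts against 51 and 51, at the high end with 0.85. Fn1, which encodes fibronectin and has RBFOX-regulated exons, had 386 ± 30.9 CPM in the controls and 334 ± 9.18 CPM in the tKO libraries (SD, n = 2), which did not overlap. The 8 tested proteins of the large assembly of splicing regulators that RBFOX joins had log2 fold changes between -0.07 for Ilf2 and -0.01 for Ddx5, whose sign changed when libraries were scaled by their totals. Of 30 tissue-restricted splicing regulators including Rbfox1 13 were above and 17 below 0, with a median of -0.01, and the highest was the neuronal microexon factor Srrm4 at 0.64 on 10 to 19 counts.

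The medians of tissue-restricted antigens lay near 0. The median was -0.04 for 22 tested antigens that depend on Aire, from Pmch at -0.58 to Gh at 0.47, and 0.03 for 7 that depend on Fezf2, from Ttr at -0.37 to Fabp9 at 0.33, the latter median being -0.196 without control 3 and 0.118 without control 2. It was 0.03 for 24 neuronal and myelin genes, from Scn2a at -0.78 to Syn1 at 0.47, and 0.08 for 27 striated muscle genes, from Myom1 at -0.55 to Myom2. None of these lists had a member that passed. Lineage factors of mimetic cells, the mTEC that take on programmes of other tissues, had a median of 0.03 over 16 tested, and both extremes were low in counts, Foxa2 with 20 and 20 against 7 and 8 at -1.31 and Myod1 with 8 and 10 against 15 and 15 at 0.82. The chemokine and cytokine genes of mTEC had a median of -0.00, with Ccl19 lowest at -0.30. Interferon-stimulated genes had a median of -0.08, with 13 of 19 below 0 and 7 with both tKO libraries below the controls, against 15.2% of all genes, the lowest being the antiviral gene Ifit2 at -0.51, and the median was -0.163 without control 3 and -0.29 in the Rbfox2 line. The study's antigen classification was at hand only as a shortened copy of 1999 genes, which was not chosen to represent the whole. In this copy the median was 0.07 for 199 tested Aire-regulated antigens, 0.03 for 158 other tissue-restricted antigens and -0.00 for 1391 other genes. Of these genes 0 passed in edgeR.

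The breadth of expression did not differ beyond the spread between mice. With each library thinned to 4050339 counts, 25344 and 26233 Ensembl genes had at least 1 count in the controls and 25716 and 26171 in the tKO libraries. The 2 groups overlapped, and the difference of 155 genes in favour of the tKO was below the pooled SD of 499 (exact two-sided permutation test, p = 1, where 2 mice against 2 cannot give less than 0.333). Its sign was not stable, as the difference was -73 without thinning, -8.5 among protein-coding genes and 125.5 at a minimum of 5 counts.

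Of all features tested, 1 differed in its response between the Rbfox1 and the Rbfox2 line, or 0.00555% (edgeR's test of the difference at an adjusted p under 0.05, with 840 at an unadjusted p under 0.05). It was Rbfox2, the gene deleted in the other line. With the pairs as a block 6 features passed. Rbfox1 itself did not pass, with a difference of -0.69 (standard error 0.189, adjusted p = 0.949, edgeR). Between mature and immature mTEC of the Rbfox1 line 0 of 17022 features differed in their response, or 0%, with 607 at an unadjusted p under 0.05 in edgeR and 0 past the adjusted p in DESeq2. The same mice gave both populations, and with the mouse as a block 19 features passed, 6 with a higher and 13 with a lower response in mature than in immature mTEC. Postn, which encodes periostin, had a difference of -1.19 (adjusted p = 1.65e-07, edgeR with the block), with 264 and 276 counts in mature controls and 266 and 165 in mature tKO, and 174 and 241 in immature controls and 355 and 326 in immature tKO libraries. Other matrix and stromal genes among the 13 were Col1a2, Col6a3, Mmp3 and Lpl. The fibroblast list had a median of 0.36 in immature mTEC and -0.06 in mature mTEC, where it was -0.435 without tKO 2 and 0.186 without tKO 3, and the part of stromal RNA in these differences was not tested. Among the 6 were Nek2 and Fancd2, genes of centrosome separation and DNA crosslink repair, which had 122 and 127, and 39 and 51 counts in immature controls against 58 and 60, and 15 and 12 in immature tKO libraries, and overlapping counts in mature mTEC. Ctrb1, Jchain and Ngp, genes of pancreas, antibody-secreting cells and granulocytes, were also among the 19 and rested on 1 or 2 immature libraries with counts above a handful.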

How the data were processed

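The unit was the read count per gene, which the authors deposited for all 16 libraries in 1 table, without normalization. RNA was selected by poly(A) and sequenced as stranded read pairs. HISAT2 2.1.0, Picard 2.10.9, featureCounts 1.6.0 and the build mm10 stand in the submitters' processing notes, and per the column names the mature libraries had been down-sampled to 14500000. The strand setting of counting was not found in the sources read. Of 89407 rows 53464 were Ensembl genes and 35943 assembled loci. Names and positions came from GENCODE M21, promoter sequences from RefSeq (GRCm38.p6, 1 window a gene). Each library had 4050339 to 4636367 counts, and genes at 1 to 10 CPM had a median standard error of 0.39 on the log2 scale.

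Counts were tested in R 4.3.3 with edgeR 4.0.16 (TMM, filterByExpr at a minimum count of 10, quasi-likelihood test) in 1 fit of the 8 mature libraries with a mean for each of 4 conditions, and p-values were adjusted over all 18021 tested features by the Benjamini-Hochberg method. Gene lists were described by counts and medians, with no test. DESeq2 1.42.0, other scalings, filters, sets of libraries, blocks and each library left out were tried as alternatives. The functions were tested on simulated data. The members and lists were chosen with earlier results of these data known. The genes named were those past the test in any setting, the 12 with the smallest p in each direction among protein-coding genes whose groups did not overlap, the extremes of each list, and Aire, Fezf2, Foxn1, Rbfox2, Psmb11, Ccl25 and Dll4. All others were named after their values were seen, and the chaperone and cholesterol lists were made then. Mice of the same number were taken as pairs in the blocked fit, since controls were littermates of the same sex per the study and the numbers match the sexes, though no label states the litter. Their deviations from the group means correlated at 0.41, or 0.153 without chromosomes X and Y. Replicates are separate mice, and the 2 libraries of a group differed by more than counting noise (chi-square per degree of freedom 3.63 in controls and 2.41 in tKO). Exon use was not analysed here. Some genes that the rule names are not reported here.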

Additional observations from a re-analysis of the deposited data

Results flagged for a closer look

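Rbfox2 was the 1 gene whose response differed between the lines, by 2.02 on the log2 scale (2.023, Rbfox1 line minus Rbfox2 line, standard error 0.220, adjusted p = 0.000351, edgeR's test of the difference). It was near its control level in the Rbfox1 tKO libraries (log2 fold change -0.12) and is the gene deleted in the Rbfox2 line. With 2 mice a group, no test for a single outlying library was possible within a group.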

How the results depend on the processing

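The direction of the 4 changed genes, of Rbfox1 and of Ptk2 held in every setting in which they were tested. Called features numbered 10 without a filter on low counts, 5 with the replicate block and 0 without the genes within 500 kb of Foxn1, and 3 to 8 with 1 library left out. Without the fold threshold these numbers were 25, 11 and 0, and 4 to 14. Rbfox1 passed without the filter, at -0.655 on the log2 scale. With the replicate block Fos, Jun, Hspa1a, Hspa1b, Xlr3b and Ptk2 passed at an adjusted p of 0.0136 (edgeR). With sex as a covariate instead, none of them passed. Features that differed between the lines numbered 2 in DESeq2, 15 without the filter, 6 with the replicate block and 1 to 12 with 1 library left out, and between the populations 19 with the replicate block by mouse and 0 to 1 with 1 library left out. Scaled by library totals Ddx5 was 0.00375. With each library left out, these genes, with their lowest and highest log2 fold change, took both signs: Aire (-0.0439 to 0.29), Birc2 (-0.19 to 0.0185), Calml3 (-0.15 to 1.06), Ccl25 (-0.0772 to 0.35), Cd79a (-0.41 to 0.64), Col3a1 (-0.63 to 0.55), Cyp2a5 (-0.12 to 0.59), Ddx5 (-0.0755 to 0.0615), Dll4 (-0.0748 to 0.16), E2f1 (-0.0333 to 0.0878), Fezf2 (-0.0011 to 0.11), Gm43305 (-0.30 to 0.86), H2-DMa (-0.13 to 0.00701), Hbb-bs (-0.72 to 0.33), Hist1h1c (-0.0941 to 0.42), Hist1h1d (-0.25 to 0.52), Itgax (-0.87 to 0.28), Krt10 (-0.11 to 0.99), Nr4a1 (-0.0552 to 0.19), Pmch (-1.03 to 0.0779), Rptn (-0.23 to 0.59), Tbx1 (-0.00473 to 0.33), Tie1 (-0.50 to 0.0938), Traf5 (-0.18 to 0.47), Uty (-9.14 to 9.26), Wasl (-0.26 to 0.80), Xist (-3.01 to 4.29). Of the values of named genes under other settings 1427 kept direction and side of the threshold, 38 passed anew, 1 was lost and 35 turned sign, and the cause was not tested. List medians moved beyond the replicate spread in 46 of their alternatives and not in 433. A fit without 1 library leaves a single library in a group, which is then assumed to vary like the others. With 2 mice a group, small changes of low genes were not detectable at this depth.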
